A study of Mus musculus with 15 samples.

Results

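Zbtb46 encodes a transcription factor with a BTB domain and zinc fingers, and its transcripts were measured by 4 of the 45037 probe sets on one-colour Affymetrix 3' arrays. The 4 probe sets (1429168_at, 1454884_at, 1440489_at and 1453856_at) were all those that the array annotation assigns to Zbtb46 alone, and 0 probe sets were shared between Zbtb46 and another gene. The study measured 15 arrays of cells from C57Bl/6 mice. The 8 arrays of bone marrow progenitors were labelled wild type and came from mice at steady state. They held 4 groups of 2 arrays: CMP, the common myeloid progenitor; GMP, its granulocyte and macrophage descendant; CDP, the progenitor of dendritic cells; and BM pre-cDC, the precursor that gives rise to classical dendritic cells. CMP were sorted as CD117 high and CD135+, GMP as CD117 high, CD16/32+ and CD135-, CDP as CD117 intermediate and CD135+, and pre-cDC as CD117 low, CD135+ and CD11c+; all 4 gates excluded MHC class II. A further array, titled as wild-type pre-cDC from Spl, carries the cell type label of a bone marrow progenitor. The 3 culture arrays came from whole bone marrow kept 7 days in 20 ng/ml of either M-CSF, from which adherent cells were taken, or GM-CSF, from which adherent cells and non-adherent CD11c+ cells were taken. The 3 monocyte arrays held bone marrow monocytes, enriched by depletion with antibodies that included one to CD11c, after 0, 24 and 48 h with GM-CSF at 20 ng/ml. The labels give no genotype for the culture and monocyte samples beyond the strain, and do not state whether animals were pooled or whether the arrays of a group are from different animals. The p-values therefore reflect the spread between the arrays at hand, which may be technical.

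BTB zinc finger proteins bind DNA through their zinc fingers, and the BTB domain pairs the proteins and recruits corepressors. In the immune system Zbtb46 is known as a factor of classical dendritic cells and of the precursors committed to them, and plasmacytoid dendritic cells, monocytes and macrophages are known to express little of it. Outside that lineage it is known in endothelial cells and in erythroid progenitors. GM-CSF and M-CSF are the growth factors used to obtain dendritic-like cells and macrophages from bone marrow.

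The annotated start of the gene was compared with those of Irf4 and P2ry10. These were the genes with the highest Pearson correlation with Zbtb46 over 14 arrays (values further on). RefSeq windows of 300 bases on GRCm38.p6, from 250 bases before to 50 bases after a transcription start, are printed 5′ to 3′ on the gene's strand for Zbtb46 at chr2:181424339-181424638 (minus strand), Irf4 at chr13:30748983-30749282 (plus strand) and P2ry10 at chrX:107088242-107088541 (plus strand, 1 of 2 starts listed). Capitals mark matches to the AP-1 motif TGANTCA, searched on both strands.
Zbtb46: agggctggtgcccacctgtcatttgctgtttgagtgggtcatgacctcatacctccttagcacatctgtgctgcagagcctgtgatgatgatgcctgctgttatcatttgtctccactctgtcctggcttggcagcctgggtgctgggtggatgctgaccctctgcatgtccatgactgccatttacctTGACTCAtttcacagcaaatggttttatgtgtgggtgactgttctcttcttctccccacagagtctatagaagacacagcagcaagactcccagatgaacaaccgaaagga
Irf4: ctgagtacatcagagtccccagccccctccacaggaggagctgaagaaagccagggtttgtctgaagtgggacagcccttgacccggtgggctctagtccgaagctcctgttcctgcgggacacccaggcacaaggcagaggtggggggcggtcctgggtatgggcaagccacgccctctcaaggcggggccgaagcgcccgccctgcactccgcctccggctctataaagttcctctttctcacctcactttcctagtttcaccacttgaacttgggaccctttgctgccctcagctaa
P2ry10: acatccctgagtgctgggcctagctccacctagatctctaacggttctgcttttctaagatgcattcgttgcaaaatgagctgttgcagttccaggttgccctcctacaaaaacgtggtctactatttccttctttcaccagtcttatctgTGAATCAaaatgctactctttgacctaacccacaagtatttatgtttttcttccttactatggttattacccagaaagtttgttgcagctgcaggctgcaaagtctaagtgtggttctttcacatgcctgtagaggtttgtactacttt
The Zbtb46 window held 1 AP-1 match, TGACTCA, at 61 bases before the start, and 7.81% of all 32851 windows of this length held such a match. The P2ry10 window held TGAATCA at 99 bases before the start, and the Irf4 window and the second P2ry10 window held none. The Ets core GGAA, present in 96% of all windows, was not among the letters of the Zbtb46 window and had 3 matches in each of the Irf4 and the printed P2ry10 windows. The STAT motif TTCNNNGAA (8.3% of all windows) matched in none of these windows, and the E-box CANCTG (51.4%) matched 3 times in the Zbtb46 window, 0 times in that of Irf4 and 1 time in that of P2ry10. The C/EBP motif TTGCNNAA (10.8%) matched in the P2ry10 window and not in the other two. The Zbtb46 window held 1 CpG, against a median of 7 over all windows, and the Irf4 and P2ry10 windows held 11 and 3. A match describes the letters only, and which start these cells use was not measured. The letters just before the annotated Zbtb46 start are mostly pyrimidines and end in AG, as at the end of an intron. Whether this window is a promoter was not tested, so its matches may lie outside one.

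Among the bone marrow progenitors, Zbtb46 was high in pre-cDC and near the array median in CMP, GMP and CDP. The deposited intensities are linear, in arbitrary units. Array medians were 15.95 to 17.44 in these 8 arrays, 24.1 to 25.7 for cultures, 77.7 to 80.5 for monocytes and 74.2 for Spl, so levels were compared within each of these sets. On the brightest probe set, 1429168_at, the intensity was 31.9 and 16 on the CMP arrays, 12.8 and 18.8 on the GMP arrays, 34.1 and 21.5 on the CDP arrays, and 383 and 422 on the pre-cDC arrays. Both pre-cDC arrays lay far above all 6 other progenitor arrays, which overlapped between CMP and GMP and between CMP and CDP. The means were 402 ± 27.8 (SD, n = 2) in pre-cDC, 27.8 ± 8.90 in CDP, 23.9 ± 11.2 in CMP and 15.8 ± 4.21 in GMP.

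The order of these means was pre-cDC, CDP, CMP and GMP, and only the step from pre-cDC to the others passed the test. Pre-cDC exceeded CDP by 2.87 on the log2(intensity + 32) scale (SE 0.148, limma adjusted p = 3.59e-08, Benjamini-Hochberg over all probe sets), which is 14.5-fold between the mean intensities; the added 32 lowers the log2 difference of dim values. In this comparison 24.6% of all probe sets were called at the threshold of 0.05, and 0.643% of the 18193 genes were called with a rise of at least 4-fold. A larger rise was seen in 36 genes. Against CMP the difference was 2.97 (adjusted p = 1.03e-08, limma, 34.1% of probe sets called) and against GMP 3.19 (adjusted p = 4.00e-09, limma, 38.4% called). CDP and CMP differed by 0.10 (adjusted p = 0.772, limma, 8.97% called), GMP and CMP by -0.21 (adjusted p = 0.435, limma, 12.4% called) and CDP and GMP by 0.32 (adjusted p = 0.152, limma, 23.9% called), although both CDP arrays were above both GMP arrays. In RNA of sorted populations, fewer cells with the transcript and less transcript per cell cannot be told apart.

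Probe set 1454884_at gave the same order of pre-cDC over the rest at a lower level, with intensities of 165 and 116 on the pre-cDC arrays and 8.58 to 20.6 on the 6 other progenitor arrays. Its rise from CDP to pre-cDC was 1.81 (SE 0.135, limma adjusted p = 8.53e-07). Probe set 1440489_at read 42.3 and 39.7 in pre-cDC and 8.35 to 12.6 elsewhere, all of the latter below the array medians, and its rise was 0.82 (SE 0.0774, limma adjusted p = 6.31e-06). Probe set 1453856_at stayed below the median of every progenitor array, at 4.53 to 8.48, and its difference of 0.13 between pre-cDC and CDP did not pass the test (limma adjusted p = 0.162). Thus 3 of the 4 probe sets were called in pre-cDC against CDP, against GMP and against CMP, and 0 of 4 in any comparison among CMP, GMP and CDP.

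**Figure D1:**
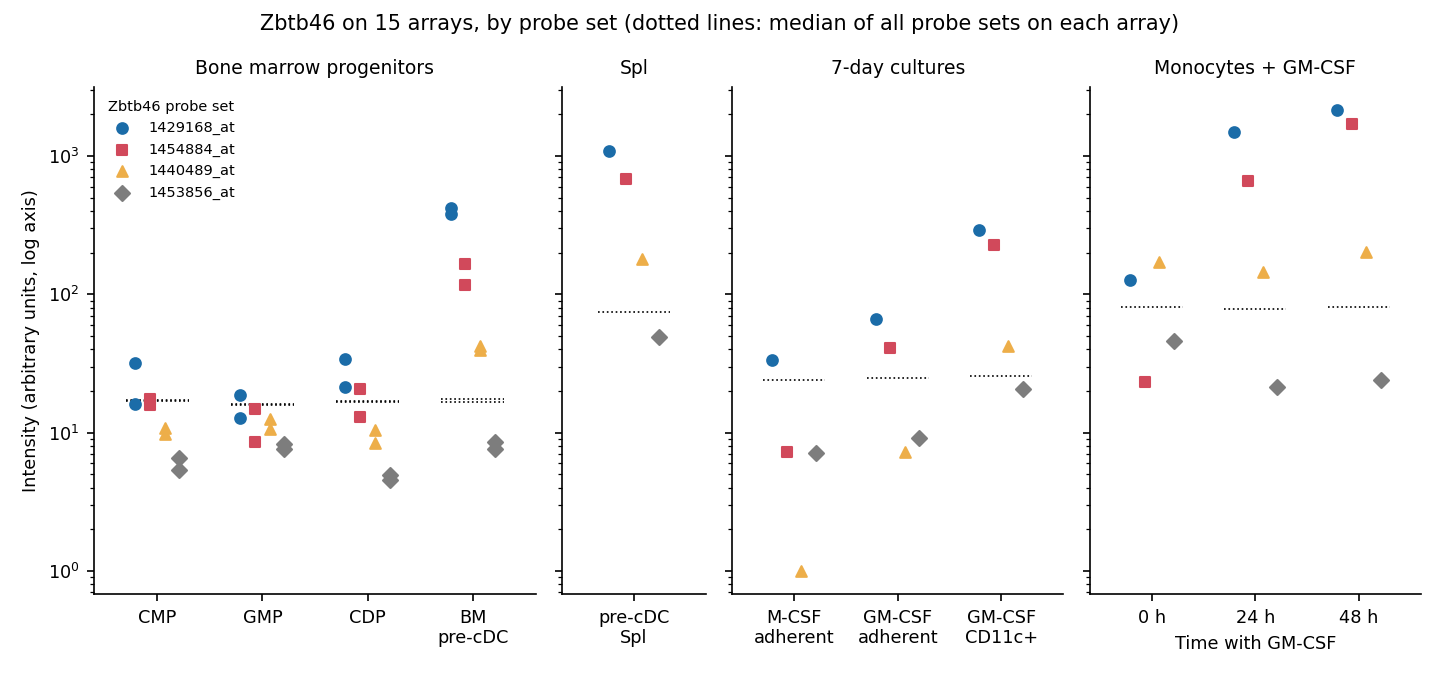
Intensity of the 4 Zbtb46 probe sets on all 15 arrays (log axis, arbitrary units); each point is 1 array and dotted lines are the medians of all probe sets on the arrays. The probe sets 1429168_at and 1454884_at stand out in BM pre-cDC, in GM-CSF CD11c+ cells, in monocytes at 24 and 48 h and on the Spl array, while 1453856_at is below the median on all 15 arrays.

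**Figure D2:**
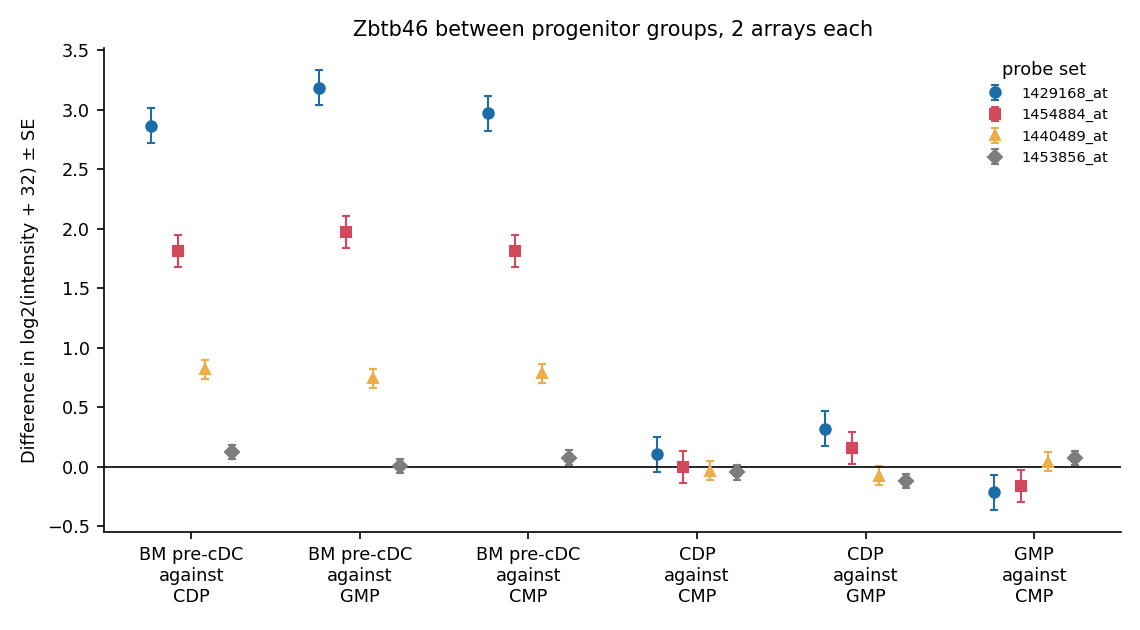
Differences in log2(intensity + 32) between progenitor groups of 2 arrays, with standard errors from limma, for each Zbtb46 probe set. The 3 comparisons with BM pre-cDC reach 2.87 to 3.19 on 1429168_at, and the 3 comparisons among CMP, GMP and CDP lie between -0.21 and 0.32 on that probe set.

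Other transcription factors of the myeloid and dendritic lineages were read beside Zbtb46 from a list of 28, of which 27 were measured (1 probe set per gene, that with the highest mean over all arrays). From CDP to pre-cDC, 14 rose, 4 fell and 9 did not pass the test, with a median difference of 0.41 against -0.01 over all genes, of which 13.2% rose and 17.4% fell. Spib, an Ets factor, rose by 4.66, Irf4, an interferon regulatory factor of dendritic cells and B cells, by 3.28, Bcl6, a BTB zinc finger repressor, by 2.29, Klf4, a Krüppel-like factor, by 1.98, and Cbfa2t3, a corepressor of the ETO family, by 1.06. Nfil3, a basic leucine zipper factor, fell by 3.49, Id2, an inhibitor of E proteins, by 1.44, Runx3, a Runt domain factor, by 1.36, and Gfi1, a repressor of granulocyte fate, by 1.20. The adjusted p of these 9 genes was at most 1.92e-05 (limma).

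From CMP to CDP, where Zbtb46 differed by 0.10, 13 of the 27 rose and 4 fell, against 6.4% and 5.55% of all genes. Klf4 had already risen there by 3.08, Id2 by 2.70, Nfil3 by 2.60, Spib by 0.77 and Bcl6 by 0.71, each called by limma (adjusted p at most 0.0036). Irf4, at 4.63 in CMP and 11.8 in CDP, differed by 0.26 (adjusted p = 0.186, limma). Whether Zbtb46 and any of these genes differed in timing was not tested as such.

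Within its own family Zbtb46 had the largest rise when read from 1429168_at, at 2.87. Of 50 BTB zinc finger genes, 46 were measured, and 6 rose, 6 fell and 34 did not pass the test between CDP and pre-cDC, with a median of -0.07. That is 26.1% of the family, beside 30.7% of all genes. Bcl6 came next, at 2.29. That is above the Zbtb46 differences of 1.81, 0.82 and 0.13 on 1454884_at, 1440489_at and 1453856_at. Patz1 fell by 1.11 (410 ± 20.1 in CDP, 173 ± 18.9 in pre-cDC) and Zbtb12 fell by 1.08. Of 12 corepressor partners of BTB proteins, 10 were measured, and 0 rose while 3 fell. These 3 are 30% of the measured partners, near the 30.7% of all genes called. The histone deacetylases Hdac2 and Hdac3 fell by 1.06 and 0.72, and Bcor, a corepressor of Bcl6, by 0.63.

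Many genes of classical dendritic cells were higher in the same pre-cDC arrays. Of 44 listed genes 40 were measured. Of these, 22 rose, 6 fell and 12 did not pass the test, with a median of 0.37, where 13.2% of all genes rose and 17.4% fell. Among the 6 that fell were Kit (-2.48), Spint2 (-1.59) and Ccr7 (-1.03). Cd209a, a C-type lectin, rose by 5.39, Slamf7, a SLAM family receptor, by 4.12, H2-Eb1, an MHC class II chain, by 3.86, and Itgax, the gene of CD11c, by 3.22. CD11c was part of the pre-cDC gate. Already between CMP and CDP 21 of the 40 rose and 1 fell (Kit, the gene of the sort marker CD117), beside 6.4% and 5.55% of all genes.

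In the 7-day cultures Zbtb46 was lowest in M-CSF adherent cells, higher in GM-CSF adherent cells and highest in GM-CSF CD11c+ cells. The intensities of 1429168_at were 33.5, 66.8 and 293 in that order, and those of 1454884_at were 7.29, 41.1 and 225. Probe set 1440489_at gave the same order at 1.0, 7.23 and 41.95, as did 1453856_at at 7.14, 9.21 and 20.7. All 4 probe sets thus ordered the 3 arrays alike, although 1453856_at stayed below the array medians and 1440489_at passed them only in the CD11c+ cells.

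Each culture sample was 1 array, so these differences have no replicate check and no p-value. A difference was counted when it was at least 4-fold with the higher value above the array median. Here 4-fold means 2 on the log2(intensity + 32) scale, so dim intensities can differ by more and not be counted. CD11c+ cells exceeded M-CSF adherent cells by 2.31 on 1429168_at and 2.71 on 1454884_at, both counted, where 1.96% of genes were counted as higher. With 64 in place of 32 as the added constant, the first value was 1.87 and no longer counted. CD11c+ cells exceeded GM-CSF adherent cells by 1.72 and 1.82 on these probe sets, under the limit of 2 (0.561% of genes counted as higher). Without the added 32, the intensities differed 4.38-fold and 5.48-fold. The 2 adherent samples differed by 0.59 and 0.90 (1.14% of genes counted as higher). For scale, the pooled SD of 1429168_at within the 4 progenitor groups gives a spread of 0.28 for the difference of 2 single arrays; no such spread is known for the cultures.

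Genes known from dendritic cells grown with GM-CSF were higher with Zbtb46. In CD11c+ against M-CSF adherent cells 16 of 27 listed genes were counted as higher and 0 as lower, with a median of 2.71 against 0.01 over all genes. The chemokine genes Ccl22 and Ccl17 differed by 6.62 and 6.56, and Ccr7, the receptor that guides dendritic cells to lymph nodes, by 5.93. Of the lineage transcription factors 7 of 27 were counted as higher and 1, Maf, as lower (0.764% of all genes were lower), led by Runx3 (4.29), Irf4 (4.06) and Cbfa2t3 (3.62). In the BTB zinc finger family Zbtb46 was the only one of 46 genes counted as higher, and 0 were counted as lower. That is 2.17% of the family, near the 1.96% of all genes. The summed intensity of 17 macrophage markers was 62918 in M-CSF adherent cells, 52610 in GM-CSF adherent cells and 45870 in CD11c+ cells, so the sum ran in the opposite order to Zbtb46. Gene by gene, 1 of the 17 was counted as higher in CD11c+ than in M-CSF adherent cells (Axl, 2.63), 1 as lower (Siglec1, -2.57) and 15 were not counted. The summed intensity of 15 neutrophil markers was 14226 in M-CSF adherent cells, 30943 in GM-CSF adherent cells and 8829 in CD11c+ cells. In CD11c+ against M-CSF adherent cells 1 of these 15 was counted as higher, the collagenase gene Mmp8 (3.62), and 6 as lower, among them the gelatinase gene Mmp9 (-5.16), with a median of -1.33. The 15 endothelial markers summed to 823, 1478 and 1354 in the same order, and 0 were counted in either direction between CD11c+ and M-CSF adherent cells. The 11 erythroid markers summed to 324, 399 and 1787, and Car2 alone was counted as higher in that comparison, at 3.20. The part of any of these markers in the result was not tested.

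In monocytes Zbtb46 was higher at 24 h with GM-CSF than at 0 h, and higher again at 48 h, on its brighter pair of probe sets. On 1429168_at the intensity was 128 at 0 h, 1487 at 24 h and 2155 at 48 h. On 1454884_at it was 23.4, 659 and 1704. The first 24 h accounted for differences of 3.25 and 3.64, both counted, in a comparison where 1.9% of genes were counted as higher. Between 24 and 48 h the differences were 0.53 and 1.33, neither counted (0.737% of genes counted as higher). Over 48 h they were 3.78 and 4.97, both counted, beside 2.97% of genes, and 186 genes were higher by more than 1429168_at. The intensity at 48 h was 16.9 times that at 0 h on 1429168_at.

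The other 2 probe sets did not show this. Probe set 1440489_at read 171 at 0 h, 146 at 24 h and 204 at 48 h, above the array median at each time and with differences of -0.20 and 0.21 from 0 h. Probe set 1453856_at, below the median at each time, read 46.2, 21.3 and 24.1. The change over time in monocytes is therefore carried by 2 of the 4 probe sets. The order in cultures was given by all 4 and the rise in pre-cDC was called on 3, but these are unlike criteria. Under the 4-fold rule, the probe sets counted in CD11c+ against M-CSF adherent cells were the same 2 as in monocytes. Which transcript parts the probe sets cover was not analysed here.

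**Figure D3:**
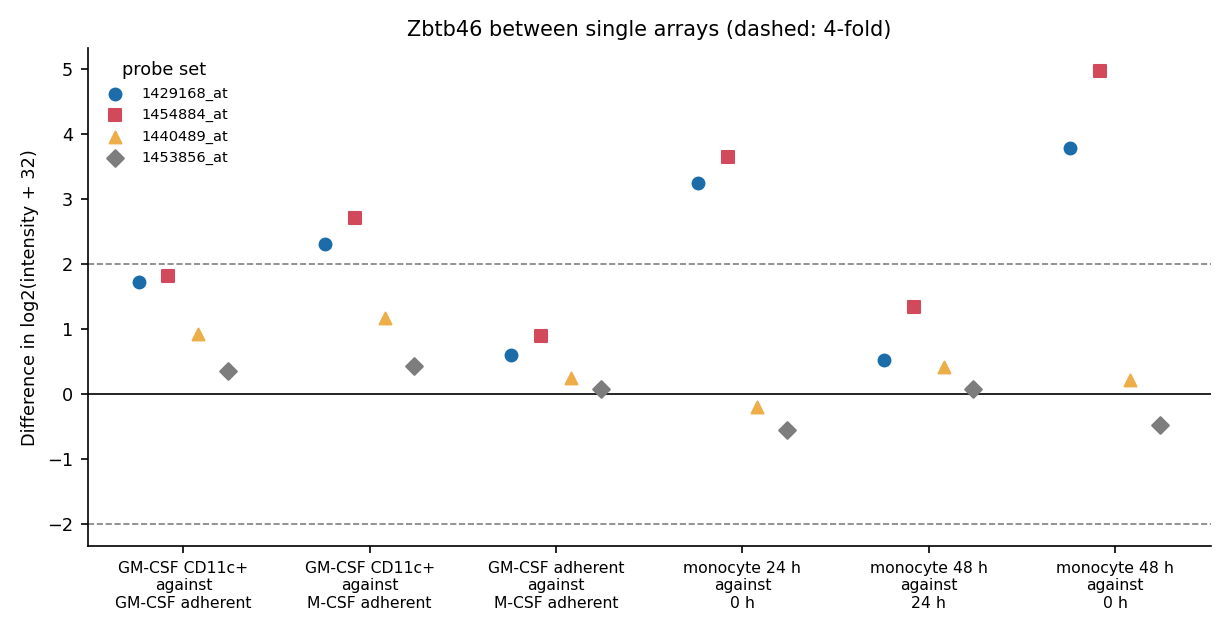
Differences in log2(intensity + 32) of the 4 Zbtb46 probe sets between single arrays of the cultures and of the monocytes; dashed lines mark 4-fold. In the monocyte comparisons 1429168_at and 1454884_at lie at 3.25 to 4.97 against 0 h, while 1440489_at and 1453856_at lie between -0.55 and 0.21.

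Many dendritic cell genes were higher in the same monocyte arrays. At 48 h against 0 h, 18 of 27 genes of GM-CSF dendritic cells were counted as higher and 0 as lower (median 3.64, against 0.00 over all genes), with Fscn1, an actin-bundling protein, at 7.98, Ccl22 at 7.70 and Ccl17 at 7.66. Of the 40 classical dendritic cell genes 19 were counted as higher and 1, Btla, as lower. The 27 lineage transcription factors went both ways. Of them 3 were counted as higher, Irf4 (3.64), Mycl (2.61) and Relb (2.06), and 2 as lower, Bcl11a (-2.75) and Irf8 (-2.48). Over all genes 2.97% were counted as higher and 1.8% as lower. Of 17 macrophage genes 7 were counted as higher, 0 as lower and 10 were not counted, and the 7 were led by Axl (5.70), a receptor kinase, and the complement genes C1qc (5.55) and C1qa (5.26). Of the BTB family 2 of 46 were counted as higher, Zbtb46 and Zbtb4 (2.04), and Zbtb16 was counted as lower at -3.66. The summed intensity of 15 neutrophil markers was 48355 at 0 h, 10703 at 24 h and 8985 at 48 h. The 15 endothelial markers summed to 1067, 1156 and 1310, and 1 of them, Vwf, was counted as higher at 48 h than at 0 h, at 2.48. The 11 erythroid markers summed to 2672, 2602 and 5987, with Car2 counted as higher at 3.45 and Slc4a1, the red cell anion exchanger, counted as lower at -3.51. The part of these markers in the differences was not tested.

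The pre-cDC array titled Spl read 1083 on 1429168_at, 686 on 1454884_at, 180 on 1440489_at and 48.97 on 1453856_at. All were above both bone marrow pre-cDC arrays, by 1.36, 2.07, 1.54 and 1.01. The median difference of all probe sets was 0.83 in the same direction, and 5.34% of genes were counted as at least 4-fold higher. When the arrays were scaled to a common median, the difference of 1429168_at was -0.66, and with quantile normalization it was 0.71. The direction of 1429168_at on the Spl array thus depends on the scaling. No rescaled difference is given here for the other probe sets. The Spl array was left out of the comparisons that follow.

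The pattern of Zbtb46 was set against that of 2613 genes over 14 arrays, after the mean of each array set (progenitors, cultures, monocytes) was subtracted from the log2(intensity + 32) values. These genes varied with an SD of at least 0.5 and passed the array median on at least 1 array. The correlation is a description only, because the arrays share groups and sets. The median Pearson r was 0.14 and 30 genes reached 0.9. The 10 highest were Irf4 (0.96), P2ry10, a receptor for lysophosphatidylserine (0.95), Bhlhe40, a basic helix-loop-helix repressor (0.95), Crybg1 (0.94), Cd209a (0.94), Pld2, a phospholipase D (0.94), Stxbp2, a protein of granule release (0.94), Amz1, a metallopeptidase (0.94), Ciita, the transactivator of MHC class II genes (0.94), and Plekhb2 (0.93). The eleventh gene had an r of 0.93, so the list has no sharp end. The Zbtb46 probe sets 1454884_at, 1440489_at and 1453856_at had an r of 0.94, 0.77 and -0.14 with 1429168_at. With Spearman correlation 2 of the 10 genes, Stxbp2 and Ciita, stayed among the 10 highest. With the 8 progenitor arrays alone 1 did, Cd209a. Irf4 and P2ry10 did not stay in either case, at a Spearman rho of 0.92 and 0.93 and a progenitor r of 0.99 and 0.97.

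Irf4 read 5.59 and 3.67 in CMP, 7.92 and 7.25 in GMP, 10.5 and 13.3 in CDP, and 357 and 437 in pre-cDC. It read 27.0, 319 and 950 in the cultures in the order given for Zbtb46, and 473, 6639 and 6248 in monocytes at 0, 24 and 48 h. Its high and low arrays were thus those of Zbtb46, except that it was not higher at 48 h than at 24 h. Irf4 was picked for its correlation on these same arrays, so the likeness follows from the choice. A second Irf4 probe set was dim and rose by 0.29 in pre-cDC against CDP (limma adjusted p = 0.00511). P2ry10 went from 41.9 ± 11.8 in CDP to 326 ± 36.0 in pre-cDC, and from 67.9 to 6688 over 48 h in monocytes.

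The 5 lowest correlations were those of Ttc32 (-0.99), Icam2, an adhesion ligand of leukocyte integrins (-0.97), Wee1, a kinase that holds back entry into mitosis (-0.97), Mlkl, the effector of necroptosis (-0.97), and Slc16a10, a transporter of aromatic amino acids (-0.96). From CDP to pre-cDC Icam2 fell by 1.80, Mlkl by 1.57, Ttc32 by 1.28, Slc16a10 by 1.20 and Wee1 by 0.98, each called by limma (adjusted p at most 2.14e-05). Between 0 and 48 h in monocytes Mlkl went from 1482 to 157 and Icam2 from 1457 to 206.

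**Figure D4:**
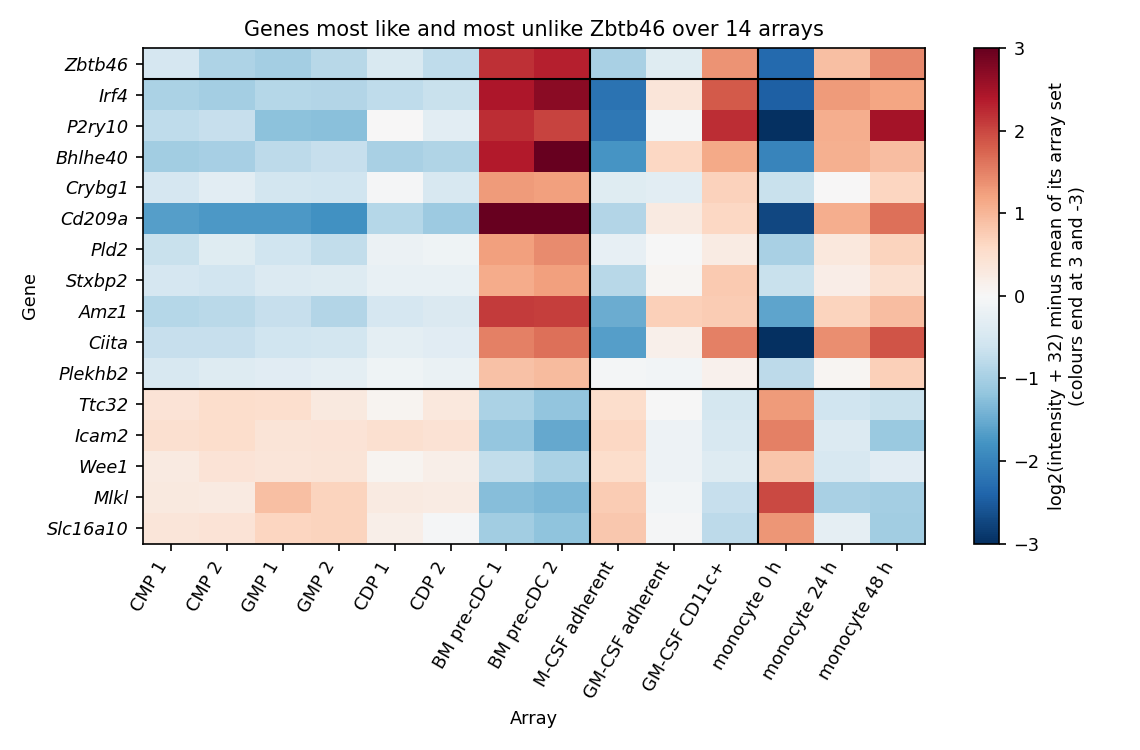
Heat map of log2(intensity + 32) minus the mean of the array set, for Zbtb46, the 10 genes most like it and the 5 most unlike it (rows) on 14 arrays (columns); colours end at 3 and -3. Zbtb46 and the 10 genes are above their set means in BM pre-cDC and GM-CSF CD11c+ cells and below them in monocytes at 0 h, and the lowest 5 genes run the other way.

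A rule chosen after values were seen asked which genes shared the 3 large differences of Zbtb46: called and at least 4-fold higher in pre-cDC than in each of CDP, GMP and CMP, at least 4-fold higher in monocytes at 48 h than at 0 h, and at least 4-fold higher in GM-CSF CD11c+ than in M-CSF adherent cells. At least 4-fold rises were called in 0.643%, 2.06% and 1.62% of genes against CDP, GMP and CMP. The first criterion held for 106 genes, the second for 540 and the third for 357 of 18193. Of the 106 pre-cDC genes 14 met the monocyte criterion, which is 13.2% of the pre-cDC genes and 2.59% of the monocyte genes. The culture criterion was met by 19, which is 17.9% of the pre-cDC genes and 5.32% of the culture genes. All 3 were met by 7 genes: Amz1, Bhlhe40, H2-Eb1, Irf4, Itgax, P2ry10 and Zbtb46. Zbtb46 was read here from 1429168_at, and its place follows from the rule, which was built on those differences. On 1454884_at the monocyte and culture criteria were met and the pre-cDC criterion was not. Its rises against CDP, GMP and CMP were 1.81, 1.97 and 1.81, under the limit of 2. Probe sets 1440489_at and 1453856_at met none of the criteria. Itgax was part of the pre-cDC and culture gates and a target of the monocyte depletion. Of the 7, Bhlhe40, Irf4 and Zbtb46 were called in no comparison among CMP, GMP and CDP, where 12% (CDP against CMP), 26.1% (CDP against GMP) and 14.9% (GMP against CMP) of genes were called. Of the 106 pre-cDC genes 19 were called in none of these comparisons. Bhlhe40 read 3.21 to 12.95 on the 6 arrays of those groups, and 346 and 551 in pre-cDC.

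**Figure D5:**
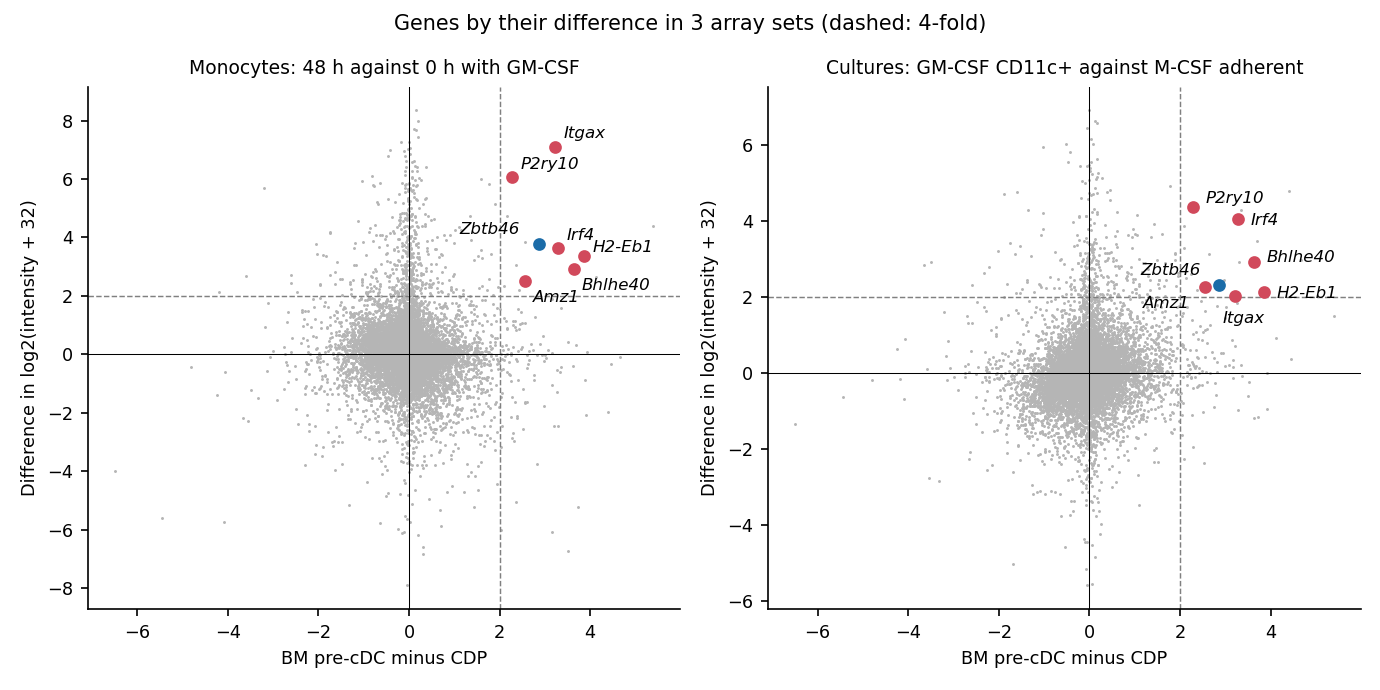
Each grey point is 1 gene, placed by its difference between BM pre-cDC and CDP (horizontal) and its difference in monocytes or in cultures (vertical), in log2(intensity + 32); dashed lines mark 4-fold. Zbtb46 (blue, probe set 1429168_at) lies at 2.87 with 3.78 in monocytes and 2.31 in cultures. The 6 other genes that passed all 3 criteria are in red.

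Csf3r and Lifr, the receptors for G-CSF and leukaemia inhibitory factor, have been reported as higher in dendritic cells of mice without Zbtb46. Here they moved in opposite directions in pre-cDC. Csf3r read 85.1 and 115 in CDP and 31.0 and 35.0 in pre-cDC, and fell by 1.01 (SE 0.128, limma adjusted p = 6.91e-05). Lifr read 132 and 191 in CDP and 717 and 1083 in pre-cDC, and rose by 2.26 (SE 0.193, limma adjusted p = 2.64e-06). Another Lifr probe set rose by 0.92 (limma adjusted p = 2.74e-06), and the remaining, dim one differed by -0.23 (adjusted p = 0.363, limma). In monocytes both were lower with GM-CSF: Csf3r read 4525, 1111 and 1168 at 0, 24 and 48 h, a difference of -1.93 that was just under the 4-fold limit, and Lifr read 3246, 900.5 and 707, a difference of -2.15 that was counted (1.8% of genes counted as lower). In the cultures neither was counted between CD11c+ and M-CSF adherent cells, at 0.13 for Csf3r and -1.10 for Lifr. The wild-type arrays hold no sample without Zbtb46, and its part in these differences was not tested.

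Markers of the other cells known to express Zbtb46 were read beside it. Of 15 endothelial markers 3 rose from CDP to pre-cDC, 2 fell and 10 did not pass the test, with a median of 0.07. That is 33.3% of these markers called, near the 30.7% of all genes. Their summed intensity was 497 to 554 on the CDP arrays and 329 to 364 on the pre-cDC arrays. Pecam1 and Eng both fell and were left out after their values were seen. The sum was then 120 to 144 in CDP and 161 to 164 in pre-cDC. Leaving out members that fell favours a higher sum in pre-cDC, so no direction was read from it. Of the remaining 13, 0 in CDP and 1 in pre-cDC lay above the median on every array of the group. Pecam1, shared by leukocytes, fell by 1.07 and Eng by 0.61, whereas Cdh5, the endothelial cadherin, rose by 0.51 from 5.03 ± 3.73 to 20.6 ± 2.62, close to the array medians. Vwf rose by 0.30, to 18.9 ± 4.35, and Kdr, a receptor for vascular endothelial growth factor, rose from 5.46 to 12.1, below the array medians. The summed intensity of 11 erythroid markers was 189 to 267 in CDP and 89.5 to 119 in pre-cDC, where Car2, a carbonic anhydrase, fell by 2.03, 0 rose and 10 did not pass the test. The part of these markers in the result was not tested.

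Many markers of plasmacytoid dendritic cells and monocytes rose from CDP to pre-cDC along with Zbtb46. Over all genes 13.2% rose and 17.4% fell in this comparison. Of 12 measured markers of plasmacytoid dendritic cells 10 rose and 2 (Cox6a2 and Ccr9) fell, with a median of 1.06, and their summed intensity was 3722 to 3932 in CDP and 9410 to 9562 in pre-cDC. Spib belongs to this list too, Irf7 rose by 2.30, and Siglech, a defining surface receptor of these cells, read 47.6 ± 9.81 in CDP and 160 ± 16.2 in pre-cDC. Of 10 monocyte markers 8 rose and 1, F13a1, fell. Fn1, fibronectin, rose by 4.40 and Ccr2, a chemokine receptor, by 1.59, and the summed intensity went from 14381 to 15232 in CDP up to 23481 to 23662 in pre-cDC. Of 17 macrophage markers 6 rose, led by Cd68, and 1, Cd93, fell. Of 15 neutrophil markers 1, Lcn2, rose and 10 fell, and Mpo, the myeloperoxidase of granules, fell by 6.50. Of 16 progenitor genes 0 rose and 10 fell, among which Cd34 fell by 4.19. Of 12 natural killer, T and B cell markers 0 rose and 2 (Nkg7 and Cd79b) fell. These 2 are 16.7% of that list, near the share of all genes that fell. The part of any of these cells in the level of Zbtb46 was not tested.

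The genes next to Zbtb46 on chromosome 2, in the order of the RefSeq table for GRCm38.p6, showed no difference of 2-fold between CDP and pre-cDC. Rtel1, Arfrp1 and Zgpat on one side differed by -0.13, -0.07 and -0.21, and Slc2a4rg-ps, Abhd16b and Tpd52l2 on the other by 0.22, 0.39 and -0.16. Among them Abhd16b, an alpha/beta hydrolase at 16.4 ± 2.79 in CDP and 31.4 ± 5.95 in pre-cDC, passed the test (limma adjusted p = 0.0248). Zgpat, Slc2a4rg-ps and Abhd16b overlap the annotated span of Zbtb46. In monocytes at 48 h against 0 h the 6 neighbours differed by -0.47 to 0.86, and 0 were counted.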

How the data were processed

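Each sample was 1 one-colour array; the deposited table holds linear intensities per probe set. Background correction, probe summary and array scaling by the authors are not given in the sources used here. Columns were matched to samples by identifier (0 without a sample). The array annotation gave 34945 probe sets 1 gene, 932 several and 9160 none. A gene was represented by its single-gene probe set with the highest mean over 15 arrays.

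The 8 progenitor arrays were fitted once in limma 3.58.1 (R 4.3.3; lmFit, contrasts.fit, eBayes with trend) on log2(intensity + 32) over 45037 probe sets, leaving 4 residual degrees of freedom (median of 12.2 once moderated). P-values are two-sided and Benjamini-Hochberg adjusted, with a threshold of 0.05; the script was tested on simulated data. Arrays within a group correlated at 0.994 to 0.996 across probe sets, and 6 to 19 probe sets differed 2-fold between them. Other comparisons had a single array on at least 1 side and no test.

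The 14 gene lists (239 of 263 symbols matched) were written from textbook knowledge, and the members and lists were chosen with earlier results of these data known. Named genes were Csf3r and Lifr; lineage transcription factors called at least 2-fold in pre-cDC against CDP; up to 4 called members of each other list with the largest differences there, or up to 3 counted in single-array comparisons; the 10 highest and 5 lowest correlations; and 3 neighbours on each side. Siglech, Kdr, the classical dendritic cell genes that fell in pre-cDC and other list members in counts of 5 or fewer were named after their values were seen. So were the genes with all 3 large differences of Zbtb46. Tables were handled with pandas 2.3.3 and figures drawn with matplotlib 3.10.9.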

Additional observations from a re-analysis of the deposited data

How the results depend on the processing

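The rise of Zbtb46 from CDP, GMP and CMP to pre-cDC kept its direction and its call under added constants of 16 and 64, scaling to a common median, quantile normalization, a filter on dim probe sets, 1 probe set per gene, eBayes without trend, and on the probe sets 1454884_at and 1440489_at and the mean of all 4. It was lost on 1453856_at alone, at 0.126, 0.0043 and 0.0768. Without each progenitor array in turn, a lone array being assumed to vary like the other groups, the differences ranged from 2.71 to 3.02 (CDP), 3.10 to 3.28 (GMP) and 2.76 to 3.18 (CMP). Differences among CDP, CMP and GMP, none called, changed sign on 1440489_at and 1453856_at: -0.0329 and -0.0487 for CDP against CMP, -0.0757 and -0.12 for CDP against GMP, and 0.0427 and 0.0725 for GMP against CMP. Leaving out arrays moved CDP against CMP from -0.10 to 0.31. The replicate numbers of the labels were not shown to pair the arrays (correlations of deviations between groups of 0.0228 to 0.26, with 4 of 6 above 0.1); with a replicate block pre-cDC exceeded CDP by 2.87 (limma adjusted p = 1.46e-08), and the block changed no call of Zbtb46.

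In single-array comparisons the values moved with the probe set and, for the Spl array, with the scaling. For CD11c+ against GM-CSF adherent cells 1440489_at gave 0.91, 1453856_at 0.35 and the mean of all 4 gave 1.20, and 1.72 counts if the limit is 2-fold. For CD11c+ against M-CSF adherent cells the constants 16 and 64 gave 2.64 and 1.87, the probe sets 1454884_at, 1440489_at and 1453856_at gave 2.71, 1.16 and 0.43, and the mean gave 1.65. For the adherent pair these probe sets gave 0.90, 0.25 and 0.0744. For monocytes they gave 3.64, -0.20 and -0.55 at 24 h against 0 h (mean 1.54), 4.97, 0.21 and -0.48 at 48 h against 0 h (mean 2.12), and 1.33 and 0.0749 on 1454884_at and 1453856_at at 48 h against 24 h. For the Spl array median scaling gave -0.66, quantile normalization 0.71, 1454884_at 2.07 and 1453856_at 1.01, and 1.36 counts at 2-fold. Of the 10 genes most like Zbtb46, 2 stayed with Spearman correlation and 1 with the progenitor arrays alone. The cause of these differences was not tested. The number of arrays, and signals near or below the array medians in CMP, GMP and CDP, limit what small differences can be seen.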
